A study of Mus musculus with 34 samples.

Results

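The windows around Myc and Pvt1 on chromosome 15 were examined, 15 windows of 200 kb out of 12836 genome-wide. They were chosen by position: every window that lies whole between 60 and 63 Mb of the mouse genome build mm9. Windows are named by their bounds in Mb of chromosome 15. Myc and the start of Pvt1 lie at 61.8 to 62 Mb, called the Myc window here. Contact with the immunoglobulin heavy chain locus Igh was measured by circular chromosome conformation capture (4C), which counts the HindIII fragments ligated to a bait fragment in Igh. The samples were 2 libraries of each of 2 Balb/c plasmacytomas, TEPC1165 and PCT4961, which are tumors of plasma cells. PCT4961 carries the genotype AID-/- BclXL, so it lacks the enzyme AID and carries the survival gene BclXL. No genotype is given for TEPC1165, and the promoter that drives BclXL is not given in the sources used here. The other 30 of the 34 samples of the series were not used. 4C measures DNA contact, so the labelled cell type could not be checked against marker genes, and each kind of tumor is represented by 1 tumor.

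Myc encodes a transcription factor that drives cell growth and division. Pvt1, its neighbour, is a long non-coding RNA gene. In mouse plasmacytomas, chromosome translocations commonly join the Igh locus to Myc, and AID is the enzyme that starts the DNA breaks of class switching in Igh. In 4C, sequence joined to the bait's chromosome is contacted more often than other sequence, and contact falls with distance along the joined DNA. Protein-coding genes are sparse around Myc. In the gene order of the build GRCm38, the 7 genes annotated between A1bg and Myc are 4 long non-coding RNA genes, 2 pseudogenes and 1 small RNA gene. No gene is annotated between Myc and Pvt1. Between Pvt1 and Gsdmc, the first of a cluster of gasdermin genes, 15 genes are annotated and 0 of them encode a protein. These names serve for order alone, because the gene table gives no positions in mm9.

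The libraries held 1668589 to 2178689 reads on 9191 to 11226 of 823057 HindIII fragments. Because no bait position is given, the bait window was taken from these reads. It is the window of chromosome 12 with the most reads in every library, 12:114400001-114600000. The bait window and the 5 windows on each side of it were left out of percentages and tests. Libraries of the 2 tumors with the same replicate number tended to have reads in the same windows. Over the 11743 windows outside chromosomes 12 and 15, their log2 reads (plus 1) correlated at r = 0.648 (number 1) and 0.636 (number 2). Replicates of the same tumor correlated less, at r = 0.115 for TEPC1165 and 0.252 for PCT4961. Libraries that differed in both tumor and number had r = 0.149 and 0.174. Outside chromosomes 12 and 15, TEPC1165 replicate 1 had at least 500 reads, and more than PCT4961 replicate 1, in 581 windows. PCT4961 replicate 1 had reads in every one of those 581, whereas PCT4961 replicate 2 had 0 reads in 326 of them. For the libraries numbered 2, reads were also present in all 421 such windows, and PCT4961 replicate 1 had 0 in 189. Where neither library of the other number had a read, PCT4961 held a median of 4.84% of the TEPC1165 reads for number 1 (quartiles 4.28% to 5.55%, 304 windows) and 4.68% for number 2 (quartiles 4.17% to 5.46%, 170 windows). In the other direction, by the same rule, TEPC1165 held a median of 1.48% of the PCT4961 reads for number 1 (68 windows). For number 2 the median was 1.29% (101 windows). Reads that same-numbered libraries have in common in this way are called shared below, and how they arose was not tested. The percentages of TEPC1165 reads are given again beside the PCT4961 values at Myc.

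The windows split at the lower border of the Myc window. The 6 windows from 61.8 to 63 Mb had 419360 and 541637 reads in TEPC1165 replicates 1 and 2, against 18995 and 24158 for PCT4961. The 9 windows from 60 to 61.8 Mb had 3 and 927 reads (TEPC1165) and 4 and 48 reads (PCT4961). Above the border 60.7% and 66.4% of 387 fragments were detected, meaning that they had at least 1 read, in TEPC1165, and 54.5% and 59.9% in PCT4961. Below it 0.457% and 0.305% of 656 fragments were detected in TEPC1165, and the same percentages in PCT4961.

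**Figure D1:**
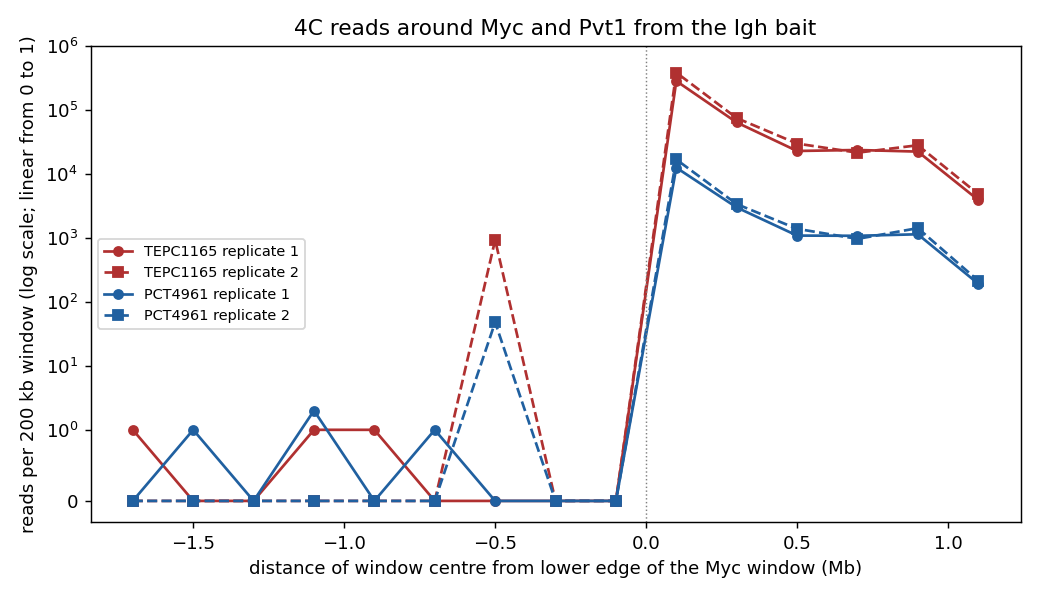
Reads per 200 kb window (log axis, linear from 0 to 1) for the 15 windows, against the distance of the window centre from the lower edge of the Myc window. Each line is 1 library. All 4 lines rise at the edge and fall to its right, and the number 2 libraries of both tumors share a point below the edge, with 927 and 48 reads.

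The Myc window was the highest window of the genome in both TEPC1165 libraries. It held 282973 reads in replicate 1 and 382973 in replicate 2, which was 4.83 and 3.34 times the reads of the bait window itself. The bait window had 58599 and 114668 reads in TEPC1165, fewer than the 353411 and 447079 in PCT4961. In PCT4961 the Myc window held 12510 and 16799 reads, and it ranked 5 in both libraries among windows outside the bait region. Reads outside the bait region made up 91.8% and 88.4% of all reads in TEPC1165 and 62.8% and 62.7% in PCT4961. As a share of the reads outside the bait region, the Myc window took 16.3% and 24.4% in TEPC1165 (20.4% ± 5.72, SD, n = 2) and 1.19% and 1.23% in PCT4961 (1.21% ± 0.0252, SD, n = 2). The difference in mean share was −19.1 percentage points, and −17.5 with all reads as the base. The tumors did not overlap, and the 2 TEPC1165 libraries lay further apart than the 2 PCT4961 libraries. The two-sided exact permutation p was 0.333, the smallest that 2 against 2 libraries allow. All 15 windows took 24.2% and 34.6% of the reads in TEPC1165 and 1.81% and 1.77% in PCT4961. The highest window of PCT4961 outside the bait region was instead 12:12800001-13000000, where the replicates had 170587 and 237211 reads, 13.6 and 14.1 times its own reads at Myc.

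The lower edge was abrupt at the resolution of 1 window. The window just below Myc, from 61.6 to 61.8 Mb, had 0 reads in all 4 libraries, as did the window below that. A count of 0 of its 70 fragments allows up to 4.29% of them, counting error alone. Against a floor of 3 reads per library, the Myc window was 94324-fold and 127658-fold higher in TEPC1165, and 4170-fold and 5600-fold higher in PCT4961. The floor treats reads as separate counts, whereas many reads can lie on 1 fragment, so these folds are not lower bounds. Of 12803 pairs of adjoining windows outside the bait region, the Myc window and the one just below it had the largest step in each of the 4 libraries, with 3 reads as the floor.

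Reads below the edge were few, and most of them came from the libraries numbered 2. Of the 9 windows, 3 had 0 reads in every library and 5 had at most 2 reads in any library. The remaining one, at 61.2 to 61.4 Mb, had 927 reads in TEPC1165 replicate 2 and 48 in PCT4961 replicate 2, on 2 of 63 fragments in each. It had 0 reads in both libraries numbered 1. The 48 reads were 5.18% of the 927, a share that lies within the quartiles found on other chromosomes for number 2. The next window below the region, from 59.8 to 60 Mb, had 0 reads in all 4 libraries.

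**Figure D2:**
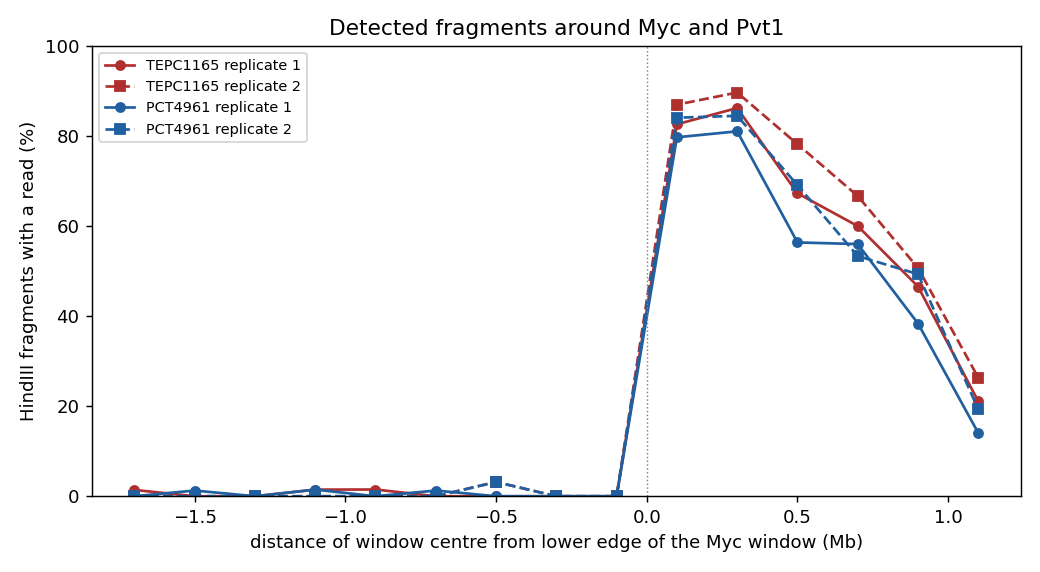
Percent of the HindIII fragments of each window with at least 1 read, in the 4 libraries (lines), against the distance of the window centre from the lower edge of the Myc window. Detection is 79.7% to 87.0% in the Myc window and 14.0% to 26.3% in the last window, and each PCT4961 line lies below the TEPC1165 line of the same number in these 6 windows.

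Above the edge, reads per window fell in 2 stages, with a plateau between them, in every library. The next window, from 62 to 62.2 Mb, had 63702 and 74536 reads for TEPC1165, against 2991 and 3375 for PCT4961. This was 21.0% ± 2.16 of the Myc window (SD, n = 2) in TEPC1165 and 22.0% ± 2.70 (SD, n = 2) in PCT4961. The fall from the Myc window to this one was 4.44-fold and 5.14-fold in TEPC1165 and 4.18-fold and 4.98-fold in PCT4961. A further 2.44-fold to 2.79-fold separated it from the window that follows.

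The plateau covered the 3 windows from 62.2 to 62.8 Mb. At 62.2 to 62.4 Mb lay 22823 and 29787 TEPC1165 reads and 1086 and 1385 PCT4961 reads. The window from 62.4 to 62.6 Mb had 23634 and 21469 in TEPC1165 and 1078 and 965 in PCT4961. The window from 62.6 to 62.8 Mb closed the plateau. Its TEPC1165 reads were 22307 and 28035, and its PCT4961 reads 1138 and 1420. Within a library the 3 windows differed by at most 1.47-fold. In reads per window the replicates did not keep the same order inside the plateau: the window at 62.4 Mb was the highest of the 3 in TEPC1165 replicate 1 and the lowest of them in TEPC1165 replicate 2. The windows hold 55, 75 and 73 HindIII fragments, and per fragment the window at 62.2 Mb was the highest of the 3 in all 4 libraries. Its reads per fragment were 415 and 542 in TEPC1165, against 315 and 286 at 62.4 Mb and 306 and 384 at 62.6 Mb. In PCT4961 they were 19.7 and 25.2, against 14.4 and 12.9 and against 15.6 and 19.5. The plateau is thus level in reads per window, while per fragment the 3 windows differed by 1.36-fold to 1.96-fold within a library.

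The last window, from 62.8 to 63 Mb, was lower again. Its reads numbered 3921 and 4837 for TEPC1165 and 192 and 214 for PCT4961, which was 5.69-fold, 5.80-fold, 5.93-fold and 6.64-fold below the window before it. Relative to the Myc window it kept 1.32% ± 0.0867 (SD, n = 2) in TEPC1165 and 1.40% ± 0.184 (SD, n = 2) in PCT4961. The next window towards the Gsdmc genes, from 63 to 63.2 Mb and outside the region, was higher than it in all 4 libraries, with 7054 and 8007 reads (TEPC1165) and 323 and 361 (PCT4961). The fall was therefore not steady with distance.

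Fewer detected fragments and fewer reads per detected fragment both entered the fall, at different distances. From the Myc window to the next, the share of fragments detected did not drop in any library. It was 82.6% and 87.0% in the Myc window of TEPC1165 and 86.2% and 89.7% in the next, and 79.7% and 84.1% followed by 81.0% and 84.5% in PCT4961. Reads per detected fragment did drop, from 4964 and 6383 to 1274 and 1433 in TEPC1165 and from 227 and 290 to 63.6 and 68.9 in PCT4961. This first fall was thus carried by reads per fragment, which were 3.57-fold to 4.45-fold lower.

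Further out, detection fell as well. In TEPC1165 it was 67.3% and 78.2% at 62.2 Mb, 60.0% and 66.7% at 62.4 Mb, 46.6% and 50.7% at 62.6 Mb, and 21.1% and 26.3% at 62.8 Mb. In PCT4961 it was 56.4% and 69.1%, then 56.0% and 53.3%, then 38.4% and 49.3%, and last 14.0% and 19.3%. Over the plateau, where reads per window stayed level, detection thus declined in each library. Reads per detected fragment did not fall steadily there. From 62.4 to 62.6 Mb they rose from 525 to 656 and from 429 to 758 in TEPC1165. In PCT4961 they rose from 25.7 to 40.6 and from 24.1 to 39.4. Between the Myc window and the last one, reads per detected fragment fell 15.2-fold and 19.8-fold in TEPC1165 and 9.48-fold and 14.9-fold in PCT4961, and detection fell 3.92-fold and 3.30-fold in TEPC1165 and 5.68-fold and 4.36-fold in PCT4961. For scale, a window outside the bait region with any read had a median of 8 to 14 reads per detected fragment across the 4 libraries. No removal of PCR copies is known, so a high number of reads on a fragment need not mean as many ligation events.

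**Figure D3:**
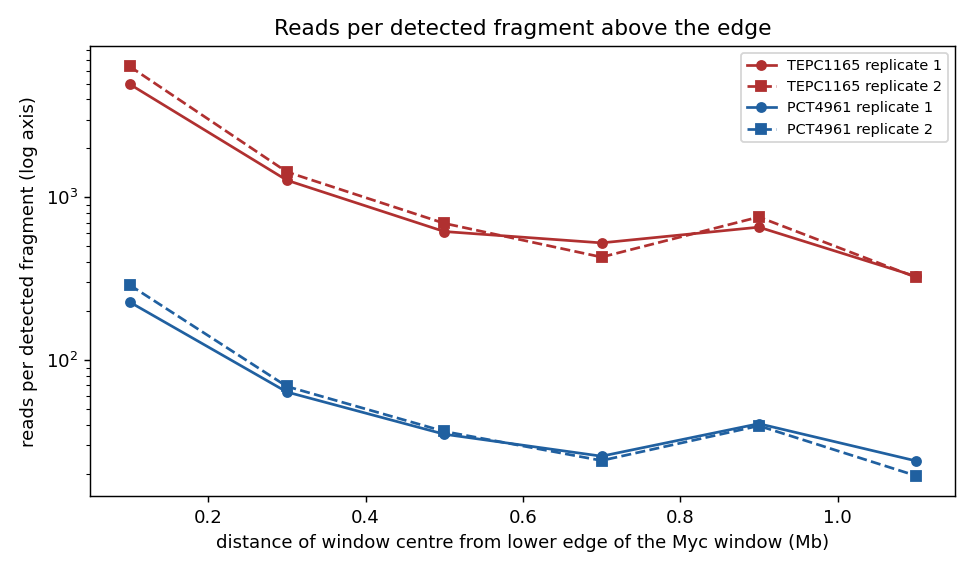
Reads per detected HindIII fragment (log axis) in the 6 windows from the Myc window upwards, by library, against distance from the lower edge of the Myc window. The TEPC1165 libraries fall from 4964 and 6383 to 327 and 322, and the PCT4961 libraries from 227 and 290 to 24.0 and 19.5. Every line rises between the windows at 62.4 and 62.6 Mb.

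Between the tumors, 5 of the 15 windows were lower in PCT4961 by edgeR's quasi-likelihood test with Benjamini-Hochberg adjustment over all 3449 windows tested. These 5 are the Myc window and the 4 that follow it. Of all tested windows, 0.174% were called lower in PCT4961, and of the 15 windows 7 had enough reads to be tested. In the Myc window the log2 fold change of PCT4961 over TEPC1165 was −3.85 (SE 0.26, edgeR adjusted p = 3.73e-09). In the next window it was −3.80 (SE 0.38, edgeR adjusted p = 1.51e-06). The 3 plateau windows had −3.76, −3.85 and −3.65, with edgeR adjusted p of 0.00183, 0.00242 and 0.00258. The called windows differed between tumors by nearly the same factor, and differences among them were not tested. The size of that factor moved with the scaling and the libraries. In the Myc window it was −4.66 with DESeq2 size factors and −2.46 without TEPC1165 replicate 2, a fit in which the other 4 called windows had −2.32 to −2.72. The median over all windows tested moved too, from −1.01 to −1.70 with DESeq2 size factors and to 0.84 without TEPC1165 replicate 2. Reads shared between libraries of the same number, whose percentages were given above, would by themselves give PCT4961 a near constant fraction of the TEPC1165 reads, and the fold cannot be told apart from that fraction.

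The other 2 tested windows did not pass. The last window stood at −3.79 on the log2 scale (SE 1.52, edgeR adjusted p = 0.795), of the same size as its neighbours but with fewer reads. The window at 61.2 Mb had −3.39 (SE 4.58, edgeR adjusted p = 0.795) and rested on the libraries numbered 2. The 8 windows that were not tested all lay below the edge. In each of the 6 windows from Myc upwards both PCT4961 libraries lay below both TEPC1165 libraries in their share of reads, as did 9.25% of all tested windows. The median log2 fold change was −3.79 over the 7 windows and −1.01 over all windows tested. The 5 calls depended on the test and on the libraries. DESeq2 as the test called none of the 7 (0 at unadjusted p under 0.05), and it called 0 of all 3449 windows, with 165 at unadjusted p under 0.05. Without PCT4961 replicate 2, edgeR called none of 6 (0 unadjusted), and it called 0 of all 2390 windows tested, with 9 unadjusted. Without TEPC1165 replicate 2 or without PCT4961 replicate 1, 2 of the 5 were called, the Myc window and the next.

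The PCT4961 reads followed the TEPC1165 reads of the same replicate number window by window. In the 6 windows from Myc upwards, PCT4961 replicate 1 held 4.42%, 4.70%, 4.76%, 4.56%, 5.10% and 4.90% of the reads of TEPC1165 replicate 1. Between the libraries numbered 2 the values were 4.39%, 4.53%, 4.65%, 4.49%, 5.07% and 4.42%. All 6 values of each number lay within the quartiles found on other chromosomes, given above. Between libraries of different number the percentage varied more, from 3.27% to 6.37%.

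**Figure D4:**
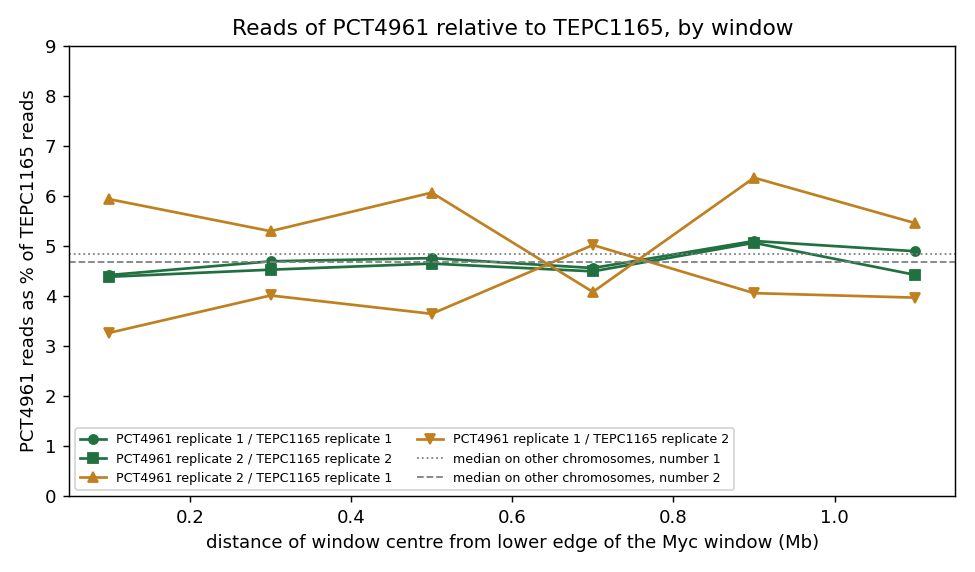
PCT4961 reads as a percentage of TEPC1165 reads in the 6 windows from the Myc window upwards, against distance from its lower edge. Libraries of the same number (green) lie between 4.39% and 5.10%, libraries of different number (orange) between 3.27% and 6.37%, and the grey lines mark the medians on other chromosomes, 4.84% and 4.68%.

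The spread between replicates was shared by the tumors too. The ratio of replicate 2 to replicate 1 in TEPC1165 was 1.35 in the Myc window, 1.17 in the next and 0.908 at 62.4 Mb. In PCT4961 it was 1.34, 1.13 and 0.895 in those windows. The single plateau window in which replicate 2 was below replicate 1 was thus the same one in both tumors.

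The PCT4961 reads at Myc and above did not exceed what the same-numbered TEPC1165 library would give at the medians of the other chromosomes. Over the 6 windows, 18995 reads were observed in PCT4961 replicate 1 against 20310 so estimated, and 24158 against 25363 in replicate 2. Window by window the observed count was above the estimate in 2 of 6 windows for number 1 and in 1 of 6 for number 2. The profile of PCT4961 described above, its edge and its fall included, therefore cannot be told apart from reads shared with TEPC1165. After subtraction, not below 0, 60 and 107 reads were left. No fold or call is given for these counts, because 4 of the 6 windows were then at 0 in both PCT4961 libraries by construction.

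In the Myc window 57 and 60 of 69 fragments were detected in TEPC1165 (95% Wilson intervals 72.0% to 89.8% and 77.0% to 93.0%) and 55 and 58 in PCT4961 (68.8% to 87.5% and 73.7% to 90.9%). The tumors overlapped in this window, with a difference of −2.90 percentage points (two-sided exact permutation p = 0.667, n = 2 each). On detected fragments in place of reads, edgeR called 0 of 12 windows, with 0 at unadjusted p under 0.05, and it called 0 of all 8296 windows tested, with 9 unadjusted. PCT4961 detected fewer fragments than the TEPC1165 library of the same number in 6 of the 6 windows, for both numbers. The same held in 13.0% (number 1) and 10.2% (number 2) of all windows tested on reads. In 3 of the 6, at 62.0, 62.4 and 62.8 Mb, both PCT4961 libraries lay below both TEPC1165 libraries in detection, as did 0.899% of all windows tested on reads. Those shares are from windows not matched for detection, and windows with few detected fragments can tie. Shared reads detect at most the fragments of their source, so these counts cannot tell a difference between the tumors from sharing. At the medians of the other chromosomes, a detected fragment of the Myc window in TEPC1165 would have 240 and 299 shared reads on average in the PCT4961 library of its number, so detection in this window says little of a difference in reads. Reads per detected fragment in the Myc window were 21.8 and 22.0 times as high in TEPC1165 as in the PCT4961 library of the same number, and the other 5 windows ranged from 13.6 to 20.8.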

How the data were processed

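The authors deposited, per the file headers, 4 tables of read counts on HindIII fragments, with the counts of detected and of all fragments, in 200 kb windows of mm9. The counts were not normalized. For the 4C reads, an aligner, a bait position and a step against PCR copies are each not given in the sources used here. Outside the 11-window bait region, windows in which 2 or more libraries had 10 or more reads were fitted with edgeR 4.0.16 in R 4.3.3 (TMM factors, prior count 2, tumor as the only term, two-sided). The threshold was an adjusted p of 0.05, and fold changes are PCT4961 over TEPC1165. Each SE is the absolute log2 fold change, without the prior count, divided by the square root of the test's F statistic. It therefore restates the p-value and is not a separate measure of spread. Whether replicates are separate cultures is not stated in the labels, so the spread behind the p-values may be technical. Shared reads were estimated from windows outside chromosomes 12 and 15 with at least 500 reads in the source library. Wilson intervals (95%) and limits from 3 counts reflect counting error alone. The 15 windows, the rule to give all of them, the lists and the tests were chosen with earlier results of these data known. Simulated counts with known changes were used to check the edgeR script. They were drawn independently for each library, so the check did not cover reads shared between libraries. Alternatives were DESeq2 1.42.0, other scalings, filters, prior counts and bases, a replicate block, detected fragments, correction for sharing and leaving out each library. Python 3.11.15 (pandas 2.3.3, scipy 1.17.1) gave the other values. Gene order came from the RefSeq table of GRCm38, in which both Myc and Pvt1 were found; no sequence is printed.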

Additional observations from a re-analysis of the deposited data

How the results depend on the processing

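Of the 7 tested windows, 5 were called lower in PCT4961. DESeq2 as the test called 0, detected fragments in place of reads 0, and edgeR on windows outside chromosome 12 called 3. Leaving out a library gave 0 to 5, on the assumption that the tumor's single remaining library varies as the other tumor's do. The Myc window and the next were called in 3 of these 4 fits, and each plateau window in 1. With the replicate number as a block 5 were called, but with higher edgeR adjusted p. It was 0.000867 in the Myc window, 0.00645 in the next, and 0.0430, 0.0470 and 0.0453 in the plateau windows, close to the threshold. Deviations of same-numbered libraries correlated (r = 0.66 over 3449 windows). No label pairs these libraries, and pairing cannot be told apart from the shared reads described above, whose origin was not tested. In 101 repeats over the 7 windows no fold change turned its sign, and 77 stayed on the same side of the threshold. These 77 include repeats with another prior count, which cannot change a call. They also include repeats corrected for sharing, in which subtraction took away nearly all PCT4961 reads of the called windows by construction. Others are windows not called in the fit reported that stayed not called, so the tally does not measure how stable the calls are. With DESeq2 size factors the median over all windows tested moved from −1.01 to −1.70, and the Myc window relative to it was −2.84 in the fit reported. With detected fragments the 15 windows' share differed by −0.541 percentage points in place of −27.6. As a percentage of the Myc window, the 5 windows below it averaged 0.0242% in TEPC1165 and 0.0294% in PCT4961, where the single window below had 0. These averages rest on the libraries numbered 2, with 7.07e-05% and 0.0484% in TEPC1165 and 0.0016% and 0.0571% in PCT4961. The 5 windows above averaged 8.96% in TEPC1165 (median 7.69%) and 9.56% in PCT4961. By reads per detected fragment these were 12.5% and 14.8%, and by detected fragments 64.1% and 58.4%. With 1 window of 200 kb as the unit, the edge cannot be placed more finely.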
